A study of Medicago sativa with 12 samples.

Results

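Beta-amylases were taken as all gene models whose description in the deposited table contains the word beta-amylase in any case, which gave 45 of 164632 models under 11 descriptions. Of these models, 39 also carried the KEGG entry for beta-amylase, and 19 other models with that entry but another description were left out. Expression was tested for models with a mean of at least 1 FPKM (fragments mapped, scaled to transcript length and library size) over 12 libraries, and 27 of the 45 passed this filter. The other 18 averaged at most 0.952 FPKM. Counts and FPKM were also summed over models with the same description, and 9 of the 11 sums passed the filter.

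Beta-amylase cuts maltose units from the free ends of starch chains, and in leaves it acts beside debranching enzymes, glucan phosphorylases and the glucan kinases and phosphatases that loosen the granule surface. The family is best known from Arabidopsis, where BAM1 and BAM3 are active plastid enzymes, BAM9 has no catalytic activity, and BAM7 and BAM8 are nuclear proteins with a DNA-binding domain. BAM3 is the main enzyme of leaf starch breakdown at night there, and BAM1 is known for its part in guard cells and under osmotic stress.

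The plants were seedlings of alfalfa (Medicago sativa L., cv. zhongmu 1#), a tetraploid forage legume, grown in vermiculite with Hoagland solution. SM plants received 150 mM NaCl with 50 µM melatonin, S plants 150 mM NaCl alone, M plants 50 µM melatonin alone and CK plants the nutrient solution alone, and every group had 3 leaf libraries. Effects were described for 15 days of treatment, and the day on which the leaves for RNA were frozen was not given separately. Each library is written as its group and replicate number, as in S3. The study names them biological replicates, and the labels do not say whether they came from separate plants or from pools.

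Estimated counts summed to between 45862158 and 57192229 per library. Transcripts of chlorophyll a-b binding proteins reached 4096 to 36534 FPKM, so the libraries carried this defining marker of leaf mesophyll, whereas leghemoglobin of root nodules reached at most 0.518 FPKM and Casparian strip membrane proteins of the root at most 1.31 FPKM. The chlorophyll a-b binding sum was 24161 to 29680 FPKM in SM and 25371 to 36534 FPKM in S, against 4096 to 21023 FPKM in M and 9357 to 14353 FPKM in CK, so this marker moved with salt without overlap. The plastocyanin sum was likewise apart, at 1405 to 1634 FPKM in SM and 2269 to 2810 FPKM in S, against 520 to 1292 FPKM in M and 490 to 1048 FPKM in CK. Of the other 2 of the 4 leaf terms, carbonic anhydrase overlapped between all groups, at 742 to 1255 FPKM over all libraries. The Rubisco small subunit, at 2488 to 11584 FPKM over all libraries, overlapped between all groups but SM and M. Its lowest SM library, at 3066 FPKM, lay just above its highest M library, at 3052 FPKM. Of the 3 seed terms, descriptions with the word legumin summed to 0.833 to 4.62 FPKM in SM and 2.29 to 3.42 FPKM in S, against 13.9 to 31.9 FPKM in M and 11.2 to 56.3 FPKM in CK, so they were lower with salt without overlap. Descriptions with the word vicilin summed to 21.8 to 48.5 FPKM and overlapped between groups. Oleosins summed to at most 4.82 FPKM, and their M libraries, at 0.204 to 0.302 FPKM, were below every library of the other groups. Their S libraries, at 0.721 to 4.82 FPKM, lay just above the SM libraries, at 0.498 to 0.714 FPKM. Both of these groups overlapped CK, at 0.429 to 0.957 FPKM. In a whole leaf, fewer cells of a type and less RNA per cell cannot be told apart.

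The study designed quantitative PCR primers for 1 beta-amylase, MS.gene027467, at chr4.2:54454352-54456612 as the table names its chromosomes. They are shown because this model is 1 copy of the chromosome 4 gene described next. Each has 20 bases, written 5′ to 3′ with the whole primer in lower case.
MS.gene027467 forward primer: ggtccagcaggagaactcag
MS.gene027467 reverse primer: ttcagaatggccagcactcg

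A few descriptions held most of the beta-amylase transcripts. Over the 12 libraries, beta-amylase 3, chloroplastic averaged 142 FPKM, inactive beta-amylase 9 averaged 138 FPKM and beta-amylase 1, chloroplastic averaged 81.4 FPKM, which was 31%, 30.1% and 17.8% of the family's FPKM. A description that gives beta-amylase with the alternative name 1,4-alpha-D-glucan maltohydrolase is called the chromosome 4 beta-amylase here. Its 4 models lie on the 4 copies of that chromosome. The models of beta-amylase 3, chloroplastic isoform X2 lie there too, and the name does not cover them. The chromosome 4 beta-amylase averaged 40.3 FPKM, and its share of the family ranged from 0.58% in M3 to 34% in S3. The family's summed level averaged 414 ± 104 FPKM in SM, 564 ± 214 FPKM in S, 442 ± 105 FPKM in M and 413 ± 8.31 FPKM in CK (SD, n = 3 each). The lowest S library, at 404 FPKM, was below the highest CK library, at 421 FPKM, so the groups overlapped.

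**Figure D1:**
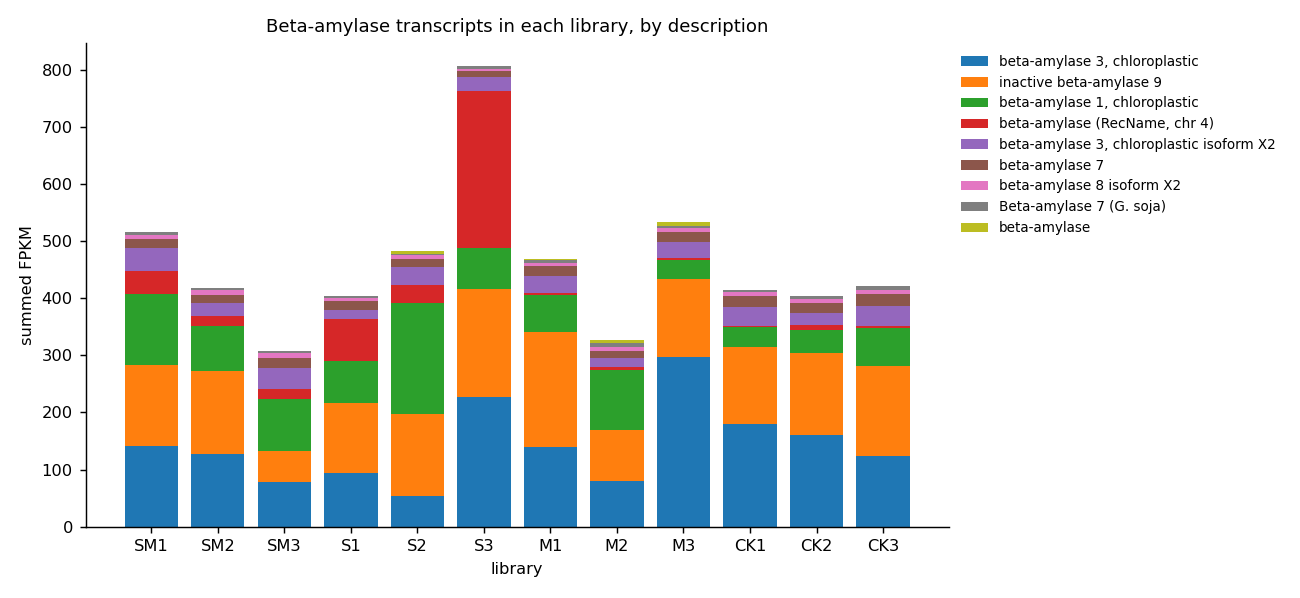
Summed FPKM of all beta-amylase models in each library, stacked by description, with libraries on the horizontal axis. The red segment, the chromosome 4 beta-amylase, is visible in the SM and S libraries and widest in S3, where it held 34% of the total.

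Among the beta-amylase descriptions, the chromosome 4 beta-amylase had the smallest adjusted p for salt. Its summed level was 74, 31.3 and 274 FPKM in S libraries, against 2.71, 9.4 and 3.61 FPKM in CK libraries. The lowest S library was above the highest CK library, and S3 stood far above the other S libraries. In S vs CK the sum rose by a log2 fold change of 4.54 (SE 0.82), 23.2-fold, with an adjusted p of 0.00661 (edgeR's quasi-likelihood test, Benjamini-Hochberg over 15402 descriptions). It was the only beta-amylase description called in S vs CK by this test, and 12.2% of all descriptions were called. Without S3 the log2 fold change was 3.27 and the adjusted p was 0.0139, and over all single libraries left out the log2 fold change lay between 3.27 and 5.32 with adjusted p values of 0.00346 to 0.0321.

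With melatonin added to the salt, the same sum was 40.7, 17.8 and 17.3 FPKM in SM libraries, against 74, 31.3 and 274 FPKM in S libraries. The highest SM library lay above the lowest S library, so the groups overlapped. SM vs S had a log2 fold change of −2.34 (SE 0.74), with an unadjusted p of 0.00944 and an adjusted p of 0.408 (edgeR's quasi-likelihood test), which does not pass. Without S3 it was −1.07 with an unadjusted p of 0.0968, so the size of this difference rested on 1 library. DESeq2 gave −2.36 with an adjusted p of 0.0375.

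SM libraries stayed above both groups without salt. M libraries had 4.2, 4.92 and 3.09 FPKM, and no SM library overlapped an M or a CK library. Fitted log2 fold changes were 2.61 (SE 0.75) in SM vs M and 2.2 (SE 0.74) in SM vs CK. Neither passed edgeR's quasi-likelihood test, with adjusted p values of 0.0629 and 0.103, whereas DESeq2 gave adjusted p values of 0.00197 and 0.0118. In M vs CK the log2 fold change was −0.41 (SE 0.72). The test of whether melatonin acted differently with and without salt gave a log2 difference of −1.92 (SE 1.01) and an adjusted p of 0.654.

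The 4 copies behind this sum were all highest in S3 and differed in level and in overlap between groups. MS.gene000320 (chr4.4:54953500-54955758) had 29.4, 15.8 and 96.8 FPKM in S libraries, against 0.618, 2.78 and 1.55 FPKM in CK libraries. It alone among the beta-amylase models passed the adjusted test, in S vs CK, at a log2 fold change of 4.88 (SE 0.8) and an adjusted p of 0.0242 by edgeR's quasi-likelihood test, where 1.54% of all tested models were called. The adjusted p was 0.0547 without CK1, 0.0582 without CK2 and 0.0956 without CK3, and between 0.0177 and 0.0455 without an S library. DESeq2 called 6 beta-amylase models in S vs CK, the 4 copies together with MS.gene041698 and MS.gene27372 of beta-amylase 1. The share of all models called by DESeq2 was not computed. MS.gene000320 had 12.2, 8.05 and 6.04 FPKM in SM libraries, all below the lowest S library.

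The copy with the designed primers, MS.gene027467, had 20.6, 3.52 and 89.2 FPKM in S libraries, against 0.659, 3.53 and 1.15 FPKM in CK libraries. S2 and CK2 were level, so these groups overlapped. MS.gene001813 (chr4.3:52311264-52313524) had 12.9, 3.3 and 36.5 FPKM in S libraries, against 0.634, 1.08 and 0.263 FPKM in CK libraries. MS.gene51367 (chr4.1:51547954-51550179) had 11.2, 8.68 and 51.5 FPKM in S libraries, against 0.802, 2.01 and 0.648 FPKM in CK libraries. For both of these the S and CK libraries did not overlap, and S3 was the highest library of all 12 for each of the 4 copies. Reads of near-identical copies could have been divided among the models, so the sum is the firmer value.

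In SM libraries MS.gene027467 had 16.1, 4.81 and 4.11 FPKM, MS.gene001813 had 5.87, 2.57 and 5.87 FPKM, and MS.gene51367 had 6.61, 2.39 and 1.28 FPKM. MS.gene51367 was below every S library, and in SM vs S it had a log2 fold change of −2.83 (SE 0.9), past a 2-fold change and an unadjusted p of 0.05 but with an adjusted p of 0.839 by edgeR's quasi-likelihood test. Without S3 its log2 fold change was −1.55 with an unadjusted p of 0.0785. The values of the other pair overlapped between SM and S.

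**Figure D2:**
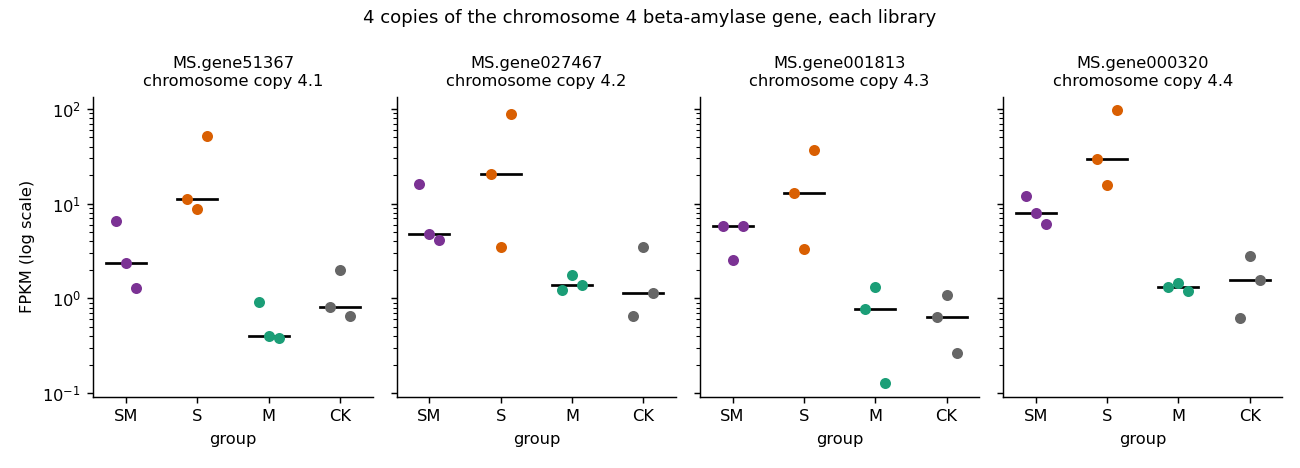
FPKM of the 4 copies of the chromosome 4 beta-amylase on a log axis, 1 panel per copy, with a point for each library and a line at the group median, for SM, S, M and CK. In every panel the highest point is S3, and MS.gene000320 has S libraries at 15.8 to 96.8 FPKM with all SM, M and CK libraries below them.

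The descriptions outside the family whose level followed the chromosome 4 beta-amylase most closely were chosen by Pearson's r of log2(summed FPKM + 1) over the 12 libraries among 15393 descriptions. They were outer envelope pore protein 16, chloroplastic (r = 0.98), DNA-binding protein BIN4 (0.97), the iron-sulfur subunit of the chloroplast cytochrome b6-f complex (0.97), a 14 kDa zinc-binding protein (0.97) and 40S ribosomal protein S23-2 (0.96). Outer envelope pore protein 16 had 67.1, 39.2 and 124 FPKM in S libraries, against 10.8, 23.9 and 14.6 FPKM in CK libraries. These 12 points share library depth and the treatment groups, and the values describe likeness alone.

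Beta-amylase 1, chloroplastic, the counterpart in name of Arabidopsis BAM1, had higher values in both salt groups than in CK, and neither difference passed the adjusted test. Its sum was 72.5, 194 and 72.4 FPKM in S libraries, against 34.6, 39 and 66.5 FPKM in CK libraries. The S libraries did not overlap the CK libraries, and S2 stood apart. S vs CK had a log2 fold change of 1.25 (SE 0.46), with an unadjusted p of 0.0205 and an adjusted p of 0.103 in edgeR's quasi-likelihood test, and it was 0.6 with an unadjusted p of 0.159 without S2. DESeq2 gave an adjusted p of 0.031.

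SM libraries had 124, 78.5 and 91.4 FPKM of beta-amylase 1, and M libraries had 64, 106 and 33.8 FPKM. SM vs CK gave a log2 fold change of 1.02 (SE 0.46) with no overlap of the libraries and an adjusted p of 0.215, and SM vs S gave −0.23 (SE 0.45) with an adjusted p of 0.928 (edgeR's quasi-likelihood test). The M libraries overlapped those of every other group.

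Of the 3 copies of beta-amylase 1, MS.gene27372 (chr6.4:51051725-51059712) and MS.gene041698 (chr6.3:70297314-70302056) were past a 2-fold change and an unadjusted p of 0.05 in both S and SM relative to CK. MS.gene041698 had 46.1, 92.7 and 28.9 FPKM in S libraries, against 12.4, 15.7 and 31 FPKM in CK libraries, and its log2 fold change was 1.55 (SE 0.49). Without S2 that value was 0.98 and no longer past the thresholds, and that of MS.gene27372, 1.45 over all libraries, was 1.01 and not past them either. In SM vs CK the log2 fold changes were 1.09 for MS.gene041698 and 1.02 for MS.gene27372, with unadjusted p values of 0.0483 and 0.0485. Leaving out CK1, CK2 or SM3 took both below the thresholds there, SM1 the first alone, and CK3 or SM2 the second alone. MS.gene27372 had 13, 22.4 and 8.48 FPKM in S libraries, 13.6, 18.3 and 5.95 FPKM in M libraries and 4.63, 4.8 and 7.07 FPKM in CK libraries. Of the family, 2 models were past the same thresholds in M relative to CK, and this was 1 of them, at a log2 fold change of 1.15 (SE 0.46) with an adjusted p of 0.855 by edgeR's quasi-likelihood test, and it was not past them without CK1, CK2, M1 or M2. The third copy, MS.gene40443 on chr6.2, passed no threshold.

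Beta-amylase 3, chloroplastic, named like the Arabidopsis enzyme of nightly starch breakdown, did not pass in any comparison. Its sum was 141, 127 and 78.7 FPKM in SM libraries, 93.5, 53 and 228 FPKM in S libraries, 140, 80.8 and 297 FPKM in M libraries and 180, 161 and 124 FPKM in CK libraries. Its log2 fold change was −0.46 (SE 0.59) in SM vs CK, −0.33 (SE 0.59) in S vs CK and 0.21 (SE 0.59) in M vs CK. The spread was wide within S and within M, and every pair of groups overlapped.

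The 17 models of beta-amylase 3 fell into loci of unlike level. On the copies of chromosome 8, 4 models averaged 130 FPKM together, and 13 models in clusters on chromosome 5 averaged 11.8 FPKM together. The most abundant copy was MS.gene61247 (chr8.2:23037537-23039789), with 58.7, 47.8 and 27.1 FPKM in SM, 26.4, 9.12 and 108 FPKM in S, 79, 35.6 and 123 FPKM in M and 71.2, 40.3 and 25.8 FPKM in CK. MS.gene011612 on chr8.1 was listed at 0 in M1 and MS.gene46383 on chr8.4 at 0 in M2 and S2, while the other chromosome 8 copies had counts in those libraries.

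On chromosome 5, MS.gene54203 (chr5.1:6569507-6570168) was the highest model at a mean of 3.39 FPKM. It had 1.56, 1.41 and 1.62 FPKM in SM, 0.484, 4.88 and 0.511 FPKM in S, 1.56, 5.83 and 0.664 FPKM in M and 6.15, 11.3 and 4.69 FPKM in CK. All SM libraries were below all CK libraries, whereas S2 and M2 reached into the CK range. The log2 fold change of SM vs CK was −2.26 with an unadjusted p of 0.0543, which did not pass the thresholds, and those of S vs CK and M vs CK were −1.88 and −1.54. Without S2 the value for S and CK was −3.8 with an unadjusted p of 0.00419 and past the thresholds, and without M2 that for M and CK was −2.72, past them too. Its neighbour MS.gene54202 averaged 1.09 FPKM, and the other 11 chromosome 5 models averaged 0.302 to 0.952 FPKM and were not tested.

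Among the descriptions, those closest to beta-amylase 3 in level over the 12 libraries were uncharacterized protein LOC25485159 (r = 0.92), 2-dehydro-3-deoxyphosphooctonate aldolase (0.88), zinc-finger homeodomain protein 2 (0.84), uncharacterized protein LOC11421396 (0.8) and an uncharacterized protein LOC103712746 isoform X4 (0.8). All of these are lower than the likeness values of the chromosome 4 beta-amylase.

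The balance of beta-amylase 1 and beta-amylase 3 varied widely between libraries. The ratio of beta-amylase 1 to beta-amylase 3 in FPKM was 0.883, 0.618 and 1.16 in SM, 0.775, 3.65 and 0.318 in S, 0.456, 1.31 and 0.114 in M and 0.192, 0.242 and 0.537 in CK. Across the 12 libraries, Pearson's r of log2(summed FPKM + 1) was −0.78 (permutation test, p = 0.00346, adjusted p = 0.125 over 36 pairs of descriptions) and Spearman's rho was −0.73 (permutation p = 0.00912, adjusted p = 0.191). Without S2 and M3, the libraries farthest from the median of beta-amylase 1, r was −0.52. With group means removed, r was −0.78 (exact permutation test within groups, p = 0.0432, adjusted p = 0.519). No relation among the 36 pairs passed the adjustment.

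**Figure D3:**
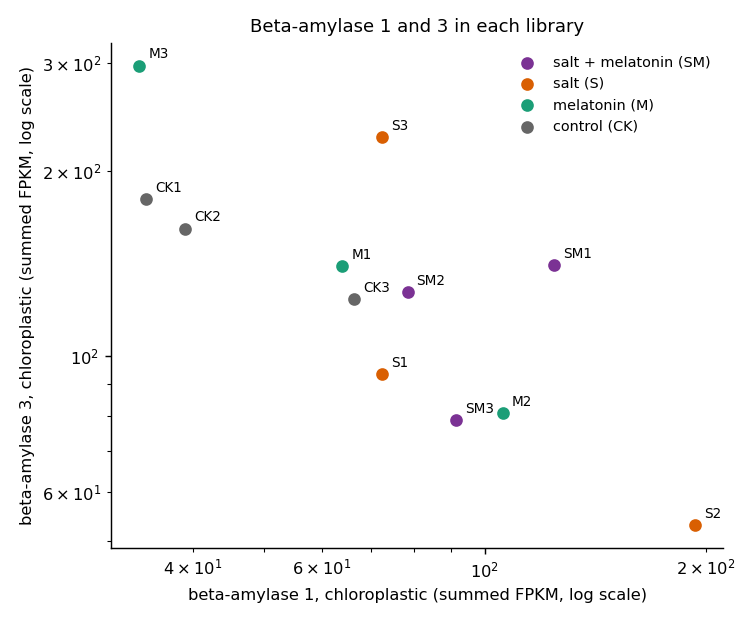
Summed FPKM of beta-amylase 3, chloroplastic (vertical, log axis) against beta-amylase 1, chloroplastic (horizontal, log axis), 1 labelled point per library, coloured by SM, S, M and CK. S2 lies at the lower right with a ratio of beta-amylase 1 to 3 of 3.65, and M3 at the upper left with a ratio of 0.114.

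Beta-amylase 3, chloroplastic isoform X2 was a separate description with 4 models near the start of chromosome 4 and did not pass in any comparison. Its sum was 39.1, 21.7 and 36.2 FPKM in SM, 16, 31.7 and 24.9 FPKM in S, 29.1, 15 and 28 FPKM in M and 32.2, 21.3 and 35.1 FPKM in CK. All groups overlapped, and its log2 fold changes ranged from −0.32 in S vs CK to 0.39 in SM vs S. The copy with the highest mean was MS.gene048964 (chr4.1:4193373-4196430), at 9.37 FPKM. The copies MS.gene06111 and MS.gene55830 were listed at 0 together in M2, S1 and SM2, while both had 5.4 FPKM or more in each of the other 9 libraries. The sum was lowest in M2 and S1, whereas CK2, where both copies had counts, was slightly below SM2.

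Inactive beta-amylase 9, whose Arabidopsis counterpart lacks catalytic activity, was abundant and overlapped between all groups. Its sum was 142, 146 and 53.7 FPKM in SM, 124, 145 and 188 FPKM in S, 201, 88.1 and 136 FPKM in M and 134, 143 and 157 FPKM in CK. Its log2 fold change was 0.03 (SE 0.38) in S vs CK and −0.41 (SE 0.38) in SM vs CK, neither past the test. SM3 was the lowest library, through MS.gene96196 (chr2.2:64754160-64756873), which had 73.1, 76.7 and 12.6 FPKM in SM, and MS.gene00981 on chr2.3, which had 62.7, 62.4 and 39.8 FPKM in SM.

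The descriptions named for the nuclear members were low, and none passed edgeR's adjusted test in any comparison. Beta-amylase 7 had 14.9, 14 and 10.4 FPKM in S libraries, against 19, 17 and 21 FPKM in CK libraries, with no overlap, and 16.8, 15 and 18.6 FPKM in SM libraries, all above the S libraries. The log2 fold change of S vs CK was −0.57 (SE 0.22), with an adjusted p of 0.12, and that of SM vs S was 0.33 (SE 0.22), with an adjusted p of 0.711 (edgeR's quasi-likelihood test). Its most abundant model was MS.gene27743 (chr7.3:29263371-29269447), and MS.gene27744 beside it had counts only in SM3, M1 and CK3.

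A separate beta-amylase 7 description, matched to Glycine soja, held MS.gene52251 alone (chr7.4:28590896-28605531). It had 2.77, 2.7 and 4.11 FPKM in S libraries, against 3.8, 5.68 and 6.33 FPKM in CK libraries. S3 lay within the CK range. The log2 fold change of its summed counts in S vs CK was −0.76 (SE 0.26), with an adjusted p of 0.0828 in edgeR's quasi-likelihood test and 0.0412 in DESeq2.

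Beta-amylase 8 isoform X2 had 7.07, 8.07 and 7.79 FPKM in SM, 6.35, 6.53 and 4.24 FPKM in S, 6.44, 7.44 and 5.79 FPKM in M and 7.13, 7.2 and 7.2 FPKM in CK. The S libraries were below all SM and all CK libraries. The log2 fold change was −0.37 (SE 0.18) in S vs CK and 0.39 (SE 0.18) in SM vs S, with adjusted p values of 0.21 and 0.562 (edgeR's quasi-likelihood test). Its highest model was MS.gene72780 (chr5.1:16766010-16777450), with a mean of 2.31 FPKM. Another copy, MS.gene83456 on chr5.4, had 3.12, 3.07 and 3.01 FPKM in SM libraries, above every other library. In SM vs CK its log2 fold change was 0.85, with an adjusted p of 0.241 by edgeR's quasi-likelihood test and 0.0211 by DESeq2. There the copies MS.gene72780 and MS.gene028139 had −0.47 and −0.03.

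**Figure D4:**
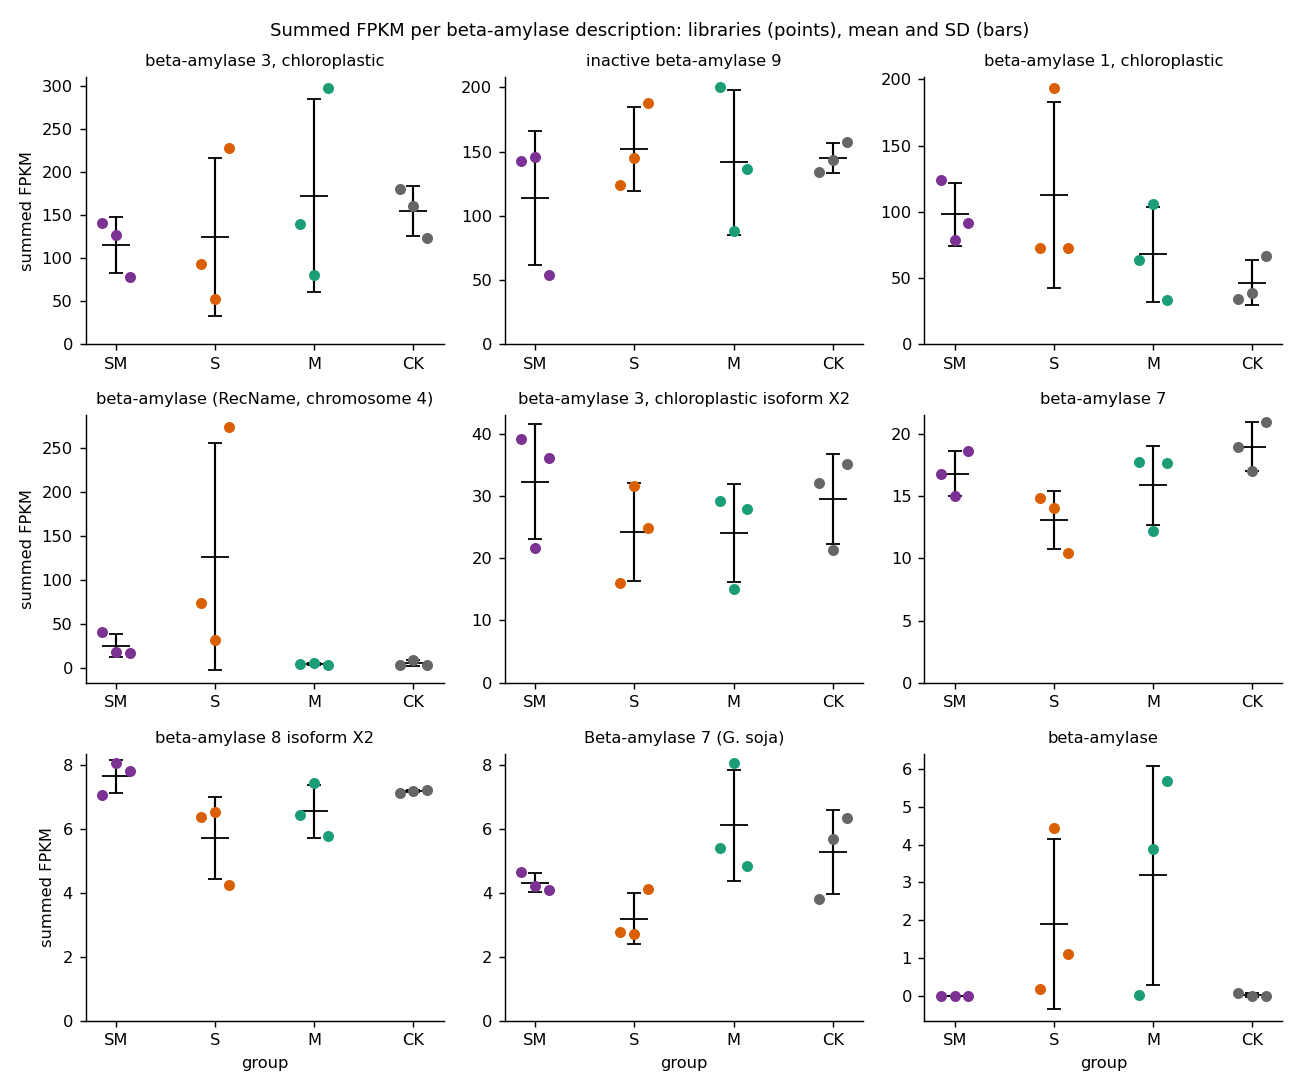
Summed FPKM of the 9 tested descriptions, 1 panel each, with a point for each library and bars for the mean and SD of SM, S, M and CK (n = 3 each). S3 reaches 274 FPKM in the chromosome 4 panel, and the CK points of beta-amylase 8 isoform X2 lie between 7.13 and 7.2 FPKM.

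The description that reads beta-amylase alone held 3 models, of which 1 passed the filter. MS.gene70005 (chr8.1:33045252-33047689) had 0, 128 and 187 counts in M libraries, 0, 145 and 33 counts in S libraries, no count in any SM library and 2, 0 and 0 counts in CK libraries. It was thus present in 2 of 3 M and 2 of 3 S libraries. Its mean level in counts per library total was at least 36.2-fold higher in M and at least 20.3-fold higher in S than in CK, and at least 35.1-fold lower in SM than in M and at least 19.7-fold lower in SM than in S. These bounds set 3 counts in every library of the low group and cover counting error only, and M1 and S1 were at 0. Of the other two, MS.gene49858 had 22, 0 and 22 counts in S libraries, 3, 0 and 0 counts in M libraries and none in SM and CK libraries, and it was not tested. MS.gene58603, of the description beta-amylase-like protein, and MS.gene016464, an inactive beta-amylase 9-like model, had no count in any library, which allows up to 3 counts in each.

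Counted over the family, 6 of 27 tested models were past both thresholds in S relative to CK, all higher, which is 22.2% of them, against 14.2% of all tested models. They were the 4 chromosome 4 copies and MS.gene041698 and MS.gene27372 of beta-amylase 1. In SM vs CK 4 models passed (MS.gene000320, MS.gene001813, MS.gene041698 and MS.gene27372), all higher, which is 14.8% against 11.6%, and in SM vs M the 4 chromosome 4 copies passed as higher and MS.gene70005 as lower, which is 18.5% against 11.7%. In SM vs S 3 models passed (MS.gene000320, MS.gene51367 and MS.gene70005), all lower, which is 11.1% against 4.77%, and in M vs CK MS.gene27372 and MS.gene70005 passed, both higher, which is 7.41% against 4.82%. Without CK1 or without CK2 no model passed in M vs CK, 2 passed in SM vs CK without CK1 or SM3, and 2 and 3 passed in SM vs M without M3 and without SM1. The share of all models was not computed with a library left out. In M vs CK the models past the thresholds were both lower without M2, and 2 of the 6 in S vs CK were lower without S2. MS.gene70005 entered the test through M2, M3, S2 and S3, with 2 counts in the other libraries together, so the filter itself favoured its differences, and without it the counts were 4 for SM against M, 2 for SM against S and 1 for M against CK. MS.gene001813 averaged 0.658 FPKM in CK and 0.736 FPKM in M, and MS.gene51367 averaged 1.15 and 0.561 FPKM. These copies too passed the filter through the salt libraries, so it favoured their differences with salt. The shares are given as descriptions. Copies of a gene may share reads, so these counts may not be of independent genes. The median log2 fold change over the 27 models was 0.03 in S vs CK against 0.05 over all models. It was −0.05 against 0.04 for SM and CK, −0.17 against −0.02 for SM and S, −0.1 against 0.02 for SM and M, and −0.06 against 0.04 for M and CK.

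With adjustment over all models at a threshold of 0.05, edgeR's quasi-likelihood test called no beta-amylase model in SM vs CK, SM vs M, SM vs S or M vs CK, where 0.342%, 0.249%, 0.0177% and 0.0118% of all models were called. In the same order 5, 5, 4 and 3 had an unadjusted p below 0.05, and DESeq2 called 3, 3, 1 and 0. No share of all models or descriptions was computed for either rule, so such counts cannot be set against a background. For description sums, edgeR's test called 0 in these comparisons, where 7.31%, 6.99%, 0% and 0% of all descriptions were called. Of the 9 sums 2, 2, 2 and 1 had an unadjusted p below 0.05, and DESeq2 called 1, 2, 2 and 0. No sum was called for the difference in melatonin effect with and without salt, where 1 had an unadjusted p below 0.05 and DESeq2 called 1. That sum was the description that reads beta-amylase alone, not the chromosome 4 beta-amylase. It passed the filter through MS.gene70005 in M2, M3, S2 and S3, so the filter favoured its differences. The same description was among the sums counted in SM vs M and SM vs S by both rules, and the only one in M vs CK. The libraries of both groups lay fully apart in FPKM for 7 of 27 models in S vs CK (25.9%, against 26.5% of all models), 11 for SM and CK (40.7%, against 24.8%), 3 for SM and S (11.1%, against 12.2%), 7 for SM and M (25.9%, against 22.2%) and 1 for M and CK (3.7%, against 14.4%).

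**Figure D5:**
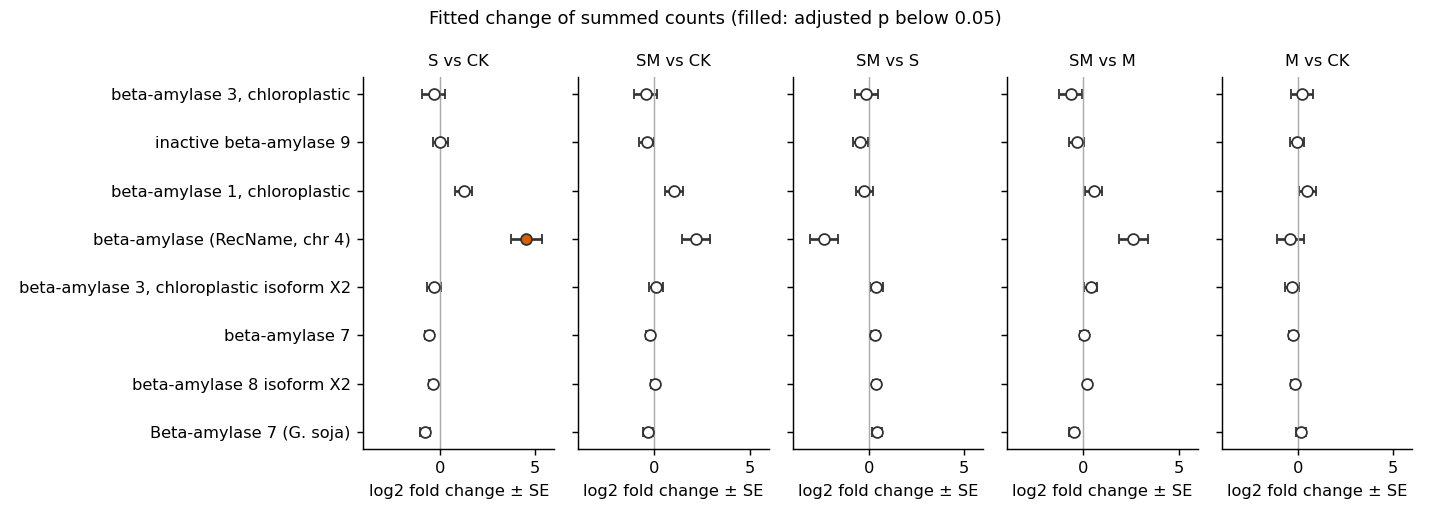
Log2 fold change with its SE for 8 tested descriptions in the 5 comparisons (description sums, edgeR's quasi-likelihood test). Filled points have an adjusted p below 0.05, and the only one is the chromosome 4 beta-amylase in S vs CK, at 4.54.

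The chromosome 4 beta-amylase moved beside other genes of starch turnover. Its description names no compartment of the cell, and its part in leaf starch turnover was not tested. Of 20 tested descriptions of other starch-breaking proteins, 7 rose and none fell in S vs CK, with a median log2 fold change of 1.12 against 0 for all descriptions (adjusted p below 0.05 in the test of edgeR), where 6.52% of all descriptions rose. By the fold and the unadjusted p, 11 were past the thresholds as higher and 1 as lower, where 9.14% and 7.82% of all descriptions were. The higher ones included isoamylase 1, at 2.79, and isoamylase 2, at 1.03. The list took isoamylases by name, and whether each acts in breakdown was not checked. The lower one was alpha-amylase, which cuts inside starch chains, at −1.47 (SE 0.63, adjusted p = 0.154). Of those that rose, phosphoglucan phosphatase DSP4, which removes phosphate from the starch surface, had 2.62 (SE 0.41, adjusted p = 0.00319). Alpha-glucan water dikinase, which phosphorylates starch, had 1.46 (SE 0.32, adjusted p = 0.0154). The transglucosidase DPE2, which uses maltose in the cytosol, had 1.54 (SE 0.33, adjusted p = 0.0137). Maltose excess protein 1, the maltose exporter of the plastid, had 1.09 with an adjusted p of 0.0689.

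Among genes of starch synthesis, 7 of 12 tested descriptions rose in S vs CK and none fell (adjusted p below 0.05 in the test of edgeR). Of all descriptions 6.52% rose, and the median log2 fold change of the 12 was 1.51. Granule-bound starch synthase 1, which makes amylose, had 4.41 (SE 0.79, adjusted p = 0.00649), close in size to the chromosome 4 beta-amylase. Small subunit 1 of glucose-1-phosphate adenylyltransferase, which makes the ADP-glucose for starch, had 4.06 (SE 0.38, adjusted p = 0.000332). In SM vs CK 3 of 20 breakdown and 6 of 12 synthesis descriptions rose, where 4.04% of all descriptions did, and in SM vs M 2 and 5 did, where 3.05% of all did, with none of either list called lower.

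For SM against S and for M against CK, edgeR's test called no description of either list. In SM vs S 1 description of each list had an unadjusted p below 0.05, and in M vs CK 0 of the breakdown and 1 of the synthesis list did. The share of all descriptions under that rule was not computed. The comparisons with CK share the CK libraries. The shift of 2 of the 4 leaf marker sums and of the legumin sum with salt, given above, runs beside these changes, and its part in the beta-amylase values was not tested. All 4 leaf marker sums were highest in S3, with Rubisco small subunit transcripts at 11584 FPKM. The chromosome 4 beta-amylase was highest in that library too. The sums of starch synthase, at 659 FPKM, and of glucose-1-phosphate adenylyltransferase, at 287 FPKM, were also highest in S3. Those of glucan phosphorylase and alpha-amylase were highest in S1 and SM3.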

How the data were processed

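The authors trimmed reads with Cutadapt, mapped them with HISAT2 2.0.4 and quantified transcripts by StringTie and Ballgown. The genome build is not given in the sources used here. The deposited table gives an FPKM value, made by the authors, and an estimated count for each gene model and library. An FPKM of 0.0001 stands for 0 in the table and was read as 0. The deposited estimated counts were tested as whole numbers with edgeR 4.0.16 in R 4.3.3 (TMM normalization, quasi-likelihood F test, all 12 libraries in 1 fit, Benjamini-Hochberg adjustment over 50931 models or 15402 descriptions with a mean FPKM of at least 1). DESeq2 1.42.0 was an alternative. Thresholds on the fold (over 2 or under 0.5) and on the unadjusted p (under 0.05) follow the study's methods. The SE of a log2 fold change is its size over the square root of F.

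Named models were the 3 listed for the family, the most abundant of each description, those with an adjusted p below 0.05 and up to 5 per comparison past the thresholds with the largest change. Some other copies of the same descriptions were named beside them. The members and lists were chosen with earlier results of these data known. The starch lists were taken by words in the descriptions. Permutation tests of correlations used 100000 draws, or all 1296 orders within groups. Same-numbered libraries did not deviate together (r from −0.08 to 0.04 in 18 pairs), so numbers were not used as pairs. An exact test of 3 against 3 libraries cannot go below p = 0.1 and was not used.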

Additional observations from a re-analysis of the deposited data

How the results depend on the processing

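The 5 comparisons were refitted with DESeq2, with DESeq2's size factors, without the filter on low values, with a mean FPKM of at least 5, on the compared groups alone, with a replicate block and without each library in turn. The rise of the chromosome 4 beta-amylase in S vs CK passed the adjusted test under every one of these settings. DESeq2 called 4 beta-amylase descriptions in S vs CK, 2 in SM vs M, 2 in SM vs S, 1 in SM vs CK and 1 for the difference in melatonin effect, against 1, 0, 0, 0 and 0 in edgeR. The share of all descriptions called was not computed for DESeq2 or for any other refit. The description that reads beta-amylase alone was among those in S vs CK, SM vs M and SM vs S. For the difference in melatonin effect it was the only one, and the filter favoured its differences as given above. On the 2 compared groups alone, 1 description was called in SM vs M. Leaving out a library gave 0 to 1 description in SM vs M, 1 to 1 in S vs CK and 0 to 0 in the others.

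Models past the fold and p thresholds numbered 0 to 2 in M vs CK, 6 to 8 in S vs CK, 2 to 5 in SM vs M, 2 to 4 in SM vs S and 2 to 3 in SM vs CK without 1 library. Those in S vs CK were 4 higher and 2 lower without S2, and those in M vs CK 0 higher and 2 lower without M2. DESeq2 gave 5 in SM vs S, DESeq2's size factors gave 2 in SM vs CK, and a mean FPKM of at least 5 left 1 in M vs CK, where fewer models were tested. The cause of the other shifts was not tested. No share of all models was computed under any of these refits, so these counts cannot be set against a background. The replicate block, whose numbers did not pair the libraries, gave 3 models in SM vs M, 1 in M vs CK and no other count of calls moved by over 1.5 times; it gave 4.43 for the chromosome 4 beta-amylase in S vs CK. The block counts held 1 lower model each in S vs CK, SM vs CK and M vs CK. MS.gene54203 was past the thresholds as lower with the block relative to CK in S (−2.46), M (−1.90) and SM (−1.94), and in SM also with DESeq2 (−2.30) and on the compared groups alone (−2.30). It changed sign in SM vs S with the block (0.52) and without S2. Its log2 fold change lay between −0.83 and 1.53 over the libraries left out of that comparison. In SM vs M it lay between −1.19 and 0.42, the highest without M2. Summed counts over the library total in place of FPKM changed no direction of the description levels. With 3 libraries per group, single libraries set much of the size of each fold.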
